A study of Lepidium sativum with 107 samples.

Results

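Light decides whether many seeds germinate, and 7 loci known for this in Arabidopsis thaliana were followed during germination of garden cress (Lepidium sativum). They were PHYA (AT1G09570), PHYB (AT2G18790), PIF1 (AT2G20180), SOM (AT1G03790), SPT (AT4G36930), DAG1 (AT3G61850) and HY5 (AT5G11260). The loci were taken by their Arabidopsis codes, not by a cutoff on their values. Earlier results of these data were known when they were chosen. Of the 13895 probe sets in the table, 6 belonged to these loci, 1 to each, and DAG1 was not analysed here. The table gives codes without gene names, so each symbol is that of the Arabidopsis locus, and each value describes the cress transcript that bound its probes.

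All seeds were of the cress stock FR14, sown on wet filter disks at 24 °C in continuous light, so every imbibed group shared the light and no dark control stood beside it. The radicle, together with the lower hypocotyl, and the micropylar endosperm that caps its tip were dissected at 1, 3, 5, 7, 10, 13 and 16 h after sowing. Seeds of 7 h were sorted by whether the testa (seed coat) was intact or ruptured, and seeds of 16 h by whether the endosperm was, which gave 9 stages for both tissues. Non-micropylar endosperm and cotyledons were taken at 3, 7 and 13 h, the 7 h samples from seeds with an intact testa per their titles. Dry seed was sampled whole, as the radicle end with its endosperm, and as the other end, which held cotyledon tissue under non-micropylar endosperm. That made 107 arrays in 27 groups, with 4 arrays in 26 groups and 3 for the dry cotyledon end. A sample pooled 100 organs, or 50 for cotyledons.

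In Arabidopsis, phytochromes are red and far-red light receptors that enter the nucleus in the light and set off the breakdown of PIF1, a bHLH factor that represses germination. PIF1 activates SOM, a CCCH zinc finger protein that keeps abscisic acid (ABA) synthesis up and gibberellin synthesis down, while SPT, another bHLH factor, and DAG1, a DOF factor, also hold germination back. HY5 is a bZIP factor that turns on light responses in the seedling and is removed in the dark through the ubiquitin ligase COP1.

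Levels are log2 expression, so a difference of 1 is a doubling, and levels of different probe sets are not compared. A group mean under 3.59, at the 25th percentile over every probe set and group, was treated as not clearly above background. SPT lay under it in 5 groups, PHYA and SOM in 2, PIF1 in 1, and PHYB and HY5 in none. Arrays of a group correlated at a median of 0.967 over all probe sets, and the lowest, replicate 2 of the cotyledons at 13 h, at 0.913. Differences were tested with limma, and passed at a p under 0.05 adjusted over all probe sets. The labels do not say that replicates were separate seed batches, so p-values cover no more than the array-to-array spread of these samples, and part or all of it may be technical. Summed linear levels of tissue markers were as follows. The 2 measured endosperm markers (EPR1 and MAN7) gave 42.7 to 701 over the stages of micropylar endosperm and 85.9 to 283 in non-micropylar endosperm. They gave 28.5 to 38.0 in radicle and 28.2 to 32.4 in cotyledons. MAN7 was dim, with means of 3.59 to 4.29 in micropylar endosperm and 3.74 to 3.87 in radicle. Its average over the stages was higher in micropylar endosperm, but from 10 h on its means were lower there than in radicle. The 6 root markers gave 93.3 to 193 in radicle and at most 103 in any other tissue, so these ranges overlapped. Among them the root cap factor SMB, went the other way from 10 h on, with means of 3.97 to 4.40 in micropylar endosperm and none clearly above background in radicle. The 5 cotyledon markers gave 154 to 339 in cotyledons and at most 146 in any other tissue. Of these, 3 were clearly above background at any stage of cotyledons, and KAN1 and YAB5 at none. KAN1 went the other way, clearly above background only in radicle from 13 h on (means 3.63 to 3.66). The 2 seed coat markers gave 24.7 to 46.5 in all 4 tissues.

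SOM moved most. Its level ran over 5.22 on the log2 scale between groups (37.3-fold, a lower bound because the lowest group was not clearly above background), a span larger than those of 99.3% of all probe sets. It was high in dry seed, highest at 3 h in both endosperm parts, and fell at testa rupture in both tissues sampled on either side of it. HY5, with a span of 2.87 (7.33-fold), was highest in cotyledons at 7 h. SPT spanned 1.67 (at least 3.19-fold) and rose late in micropylar endosperm, PHYA spanned 1.62 (at least 3.07-fold) and was higher in endosperm than in embryo tissue, PIF1 spanned 1.40 (at least 2.65-fold) and fell early, and PHYB spanned 1.06 (2.08-fold).

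**Figure D1:**
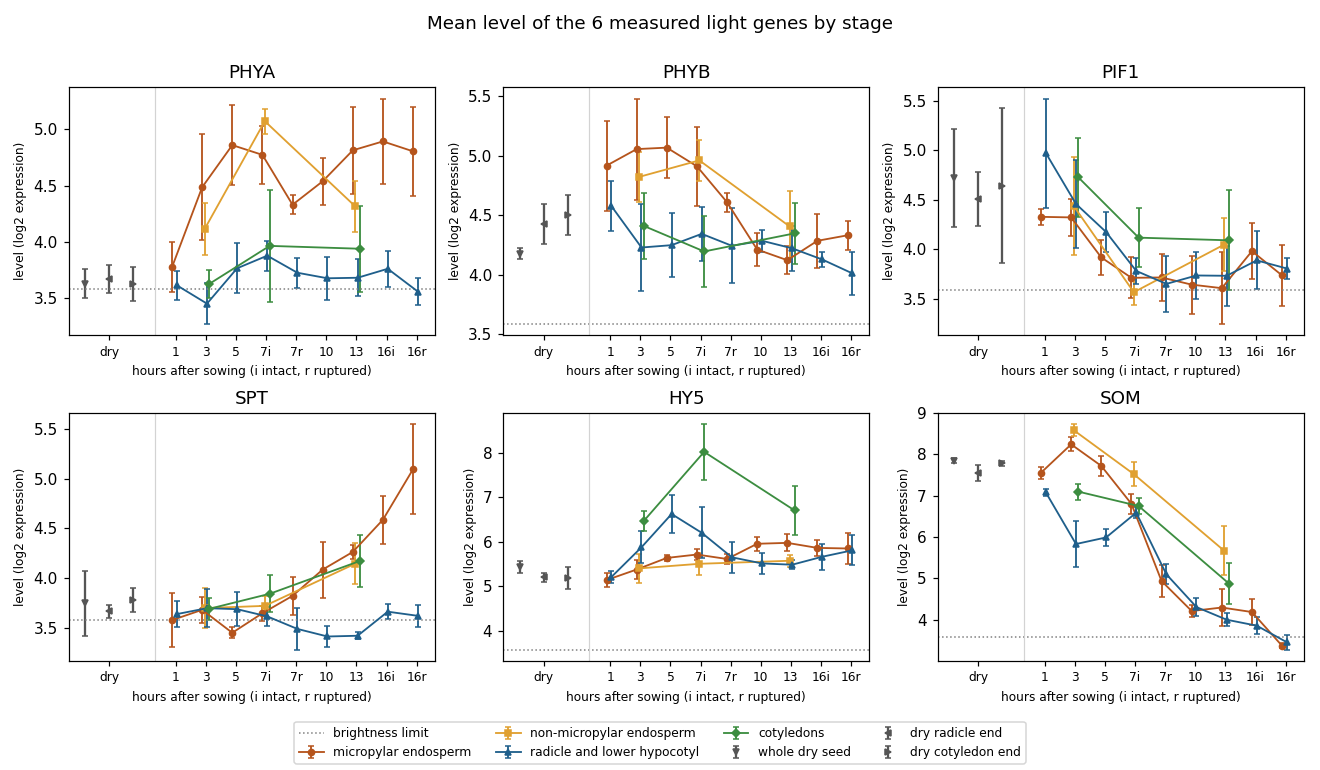
Mean level (log2 expression, error bars SD, 4 arrays a group, 3 for the dry cotyledon end) of the 6 measured genes against stage, 1 panel a gene with its own vertical range, 1 colour a tissue, and the brightness limit of 3.59 dotted. SOM falls from a highest mean of 8.59 to a lowest of 3.36, SPT climbs to 5.09 in micropylar endosperm, and HY5 peaks at 8.02 in cotyledons.

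The photoreceptor PHYA, which in Arabidopsis senses far-red and very dim light, was measured at 3.64, 3.79, 3.60 and 4.09 in the 4 arrays of micropylar endosperm at 1 h. At intact 7 h the arrays read 4.50, 4.91, 5.06 and 4.63. The groups did not overlap, and PHYA rose by 1.00 ± 0.18 (SE) on the log2 scale, or 1.99-fold (limma adjusted p = 3.42e-06). In that comparison 4 of the 6 genes passed, against 38.2% of all probe sets. Much of the rise was in place at 3 h, when the arrays read 4.92, 4.16, 4.86 and 4.01 and the mean was 0.71 ± 0.18 above 1 h (adjusted p = 0.00102), although the arrays of the groups overlapped. Here 2 of 6 genes passed against 32.4% of all probe sets, a share close to the background. In bulk samples such as these, a change in the share of cells that carry a transcript and a change in its amount per cell cannot be told apart.

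In the radicle, PHYA stayed between means of 3.45 and 3.88 over the 9 stages, close to the brightness limit. Neither the step from 1 h to 3 h (-0.16, adjusted p = 0.579) nor that from 1 h to intact 7 h (0.26, adjusted p = 0.251) passed. The difference between the tissues in the step from 1 h to 3 h, added after the values were seen, was 0.87 ± 0.25 (adjusted p = 0.0165), and 2 of 6 genes passed it against 10.1% of all probe sets. That call was lost without replicate 1 or 3 of micropylar endosperm at 3 h and in a fit on those arrays alone. For the step from 1 h to intact 7 h the difference of 0.73 ± 0.25 did not pass (adjusted p = 0.0606), as no gene did, against 7.64% of all probe sets.

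Averaged over the 9 stages, PHYA was 0.91 ± 0.06 higher in micropylar endosperm than in radicle (1.87-fold, adjusted p = 2.01e-24). At every stage after 1 h each endosperm array lay above each radicle array. Of the 6 genes, 4 were higher in micropylar endosperm and none was lower, in a comparison that 65.8% of all probe sets passed, 28.5% as higher and 37.2% as lower. From ruptured 7 h to intact 16 h PHYA rose by 0.56 ± 0.18 in micropylar endosperm (adjusted p = 0.0207), with overlapping arrays and a call lost in 4 of 8 fits that each left out 1 array. Non-micropylar endosperm gave 3.89, 4.34, 3.94 and 4.28 at 3 h, 5.16, 4.91, 5.08 and 5.13 at intact 7 h, and 4.49, 4.21, 4.52 and 4.04 at 13 h. The 7 h arrays lay above all others of that tissue: PHYA rose by 0.96 ± 0.18 from 3 h to 7 h (adjusted p = 9.8e-06) and fell by 0.76 ± 0.18 from 7 h to 13 h (adjusted p = 0.00074), both added after the values were seen and sharing the 7 h group. In these comparisons 3 of 6 and 4 of 6 genes passed, against 31.9% and 22.1% of all probe sets. Over the 3 shared times PHYA was 0.66 ± 0.10 higher in non-micropylar endosperm than in cotyledons (adjusted p = 1.14e-07), where its means were 3.63, 3.97 and 3.94.

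PHYB, the main red light receptor, had the narrowest range. In micropylar endosperm its means lay between 4.61 and 5.07 from 1 h to ruptured 7 h and between 4.12 and 4.33 from 10 h on. The 10 h arrays read 4.00, 4.24, 4.32 and 4.29, all below those of intact 7 h (4.96, 4.83, 5.32 and 4.52). Over its 9 stages PHYB passed the F-test (F = 10.3, adjusted p = 2.09e-09), whereas testa rupture (-0.30 ± 0.17, adjusted p = 0.391) and the step from ruptured 7 h to intact 16 h (-0.32 ± 0.17, adjusted p = 0.204) did not pass. All 6 genes passed that F-test in micropylar endosperm against 67.7% of all probe sets, and 3 of 6 in the radicle (PIF1, SOM and HY5) against 67% of all probe sets. In micropylar endosperm the F-test was lost for PIF1 in 3 of 4 fits that each left out 1 replicate number, and for HY5 in 1 of 4.

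In non-micropylar endosperm PHYB read 5.10, 5.10, 4.89 and 4.75 at intact 7 h and 4.13, 4.21, 4.80 and 4.47 at 13 h. The groups overlapped in 1 array of 13 h, and the fall of 0.56 ± 0.17 passed (adjusted p = 0.00956), though not without replicate 1 at 13 h. From 3 h to 13 h it fell by 0.42 ± 0.17 (adjusted p = 0.0404), a call lost in 4 of 8 fits that each left out 1 array, after quantile normalization and in the fit on those arrays alone. PHYB was 0.36 ± 0.06 higher in micropylar endosperm than in radicle (adjusted p = 3.44e-08) and 0.41 ± 0.10 higher in non-micropylar endosperm than in cotyledons (adjusted p = 0.000253). Between the endosperm parts neither receptor passed (PHYA 0.19, adjusted p = 0.262, and PHYB -0.03, adjusted p = 0.903).

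PIF1, the repressor that phytochromes remove at the protein level in Arabidopsis, was lower at 7 h than at 1 h. In the radicle the arrays read 4.65, 4.48, 5.05 and 5.71 at 1 h and 3.93, 3.68, 3.85 and 3.67 at intact 7 h. No arrays overlapped, and PIF1 fell by 1.19 ± 0.23, a 2.28-fold difference (adjusted p = 1.7e-05). Here 3 of 6 genes passed against 39.5% of all probe sets. In micropylar endosperm the arrays read 4.36, 4.26, 4.43 and 4.27 at 1 h and 3.43, 3.71, 3.93 and 3.78 at 7 h, again without overlap. PIF1 fell there by 0.62 ± 0.23 (adjusted p = 0.0282), a call lost in 3 of 8 fits that each left out 1 array. The difference between the tissues, 0.57 ± 0.33, did not pass (adjusted p = 0.318).

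After 7 h its means in these tissues stayed between 3.61 and 3.98, just over the brightness limit, so a further fall could have gone unseen. At testa rupture PIF1 gave 0.00 (95% interval -0.46 to 0.47) in micropylar endosperm and -0.13 (-0.59 to 0.33) in radicle. In non-micropylar endosperm it fell by at least 0.87 ± 0.23 between 3 h and 7 h (adjusted p = 0.00181). The 7 h arrays of 3.55, 3.47, 3.76 and 3.49 lay below the 3 h arrays of 5.02, 4.04, 4.69 and 4.01. At 13 h the arrays there read 4.04, 3.68, 4.14 and 4.33. Neither the step from 7 h to 13 h (0.48) nor that from 3 h to 13 h (-0.39) passed, although the first did in a fit on those arrays alone. In cotyledons PIF1 fell by 0.64 ± 0.23 from 3 h to 13 h (adjusted p = 0.0332), with overlapping arrays. Without replicate 1 at 3 h or replicate 1 or 4 at 13 h that fall did not pass. The seed coat marker TT12 fell over the same step as PIF1 by 0.62 in micropylar endosperm and 0.91 in radicle, while TT10, the other measured seed coat marker, did not pass in either. The endosperm marker EPR1 fell there by 2.94 and 0.71. MAN7, the other endosperm marker, rose in micropylar endosperm (means 3.93 and 4.29) and did not pass in radicle. Of the 6 root markers 1 fell in micropylar endosperm, and in radicle 2 rose and 1 fell. The radicle means of PIN2 were 3.45 and 5.90, those of PLT1 3.44 and 4.40, and those of SCR 5.00 and 4.04. Of the 5 cotyledon markers 1 rose in radicle and none passed in micropylar endosperm. The part of these markers in the PIF1 values was not tested.

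SOM, which PIF1 activates in Arabidopsis, stood at 7.85, 7.91, 7.77 and 7.83 in whole dry seed. The dry radicle end read 7.58, 7.57, 7.73 and 7.27, and the dry cotyledon end 7.80, 7.71 and 7.84. The arrays of the dry ends overlapped, and no gene of the 6 differed between them, against 9.64% of all probe sets. After 1 h the micropylar endosperm read 7.72, 7.40, 7.61 and 7.48 and the radicle 7.18, 7.00, 7.02 and 7.10. Against the dry radicle end, which holds both tissues and is shared by both comparisons, SOM gave 0.02 ± 0.19 (adjusted p = 0.977) and -0.46 ± 0.19 (adjusted p = 0.199). None of the 6 genes passed in the first hour, against 8.18% of all probe sets in micropylar endosperm and 2.94% in radicle. PHYB came closest, at 0.49 ± 0.17 in micropylar endosperm (adjusted p = 0.0534).

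**Figure D2:**
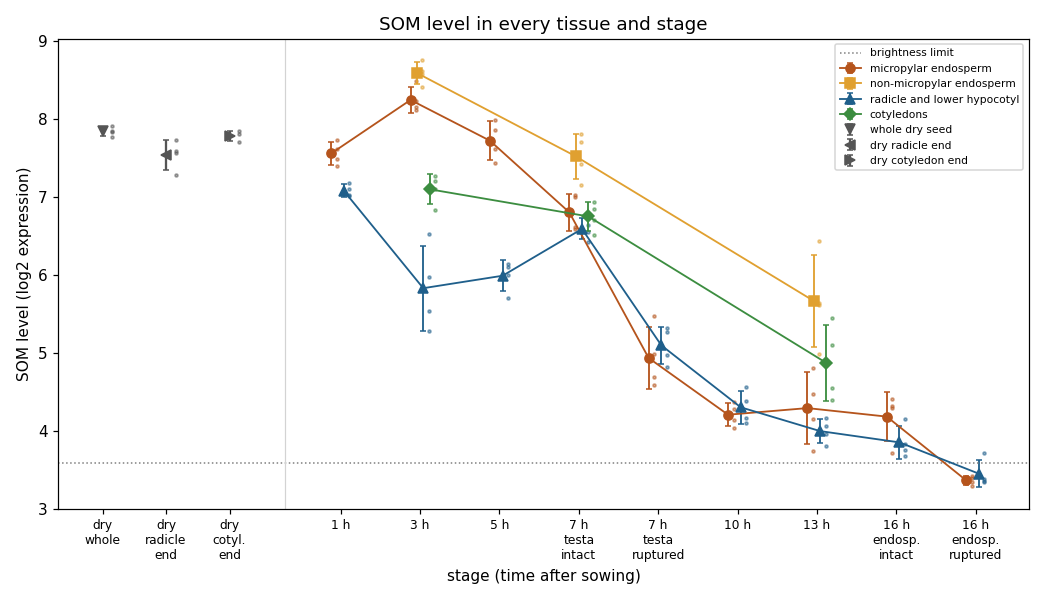
SOM level (log2 expression) against stage, with each array as a small point, group means as large symbols and SD as error bars, 1 colour a tissue, dry samples at the left and the brightness limit of 3.59 dotted. Micropylar endosperm reaches 8.24 at 3 h while radicle reads 5.83, both lie near 5 at 7 h with a ruptured testa, and both end below the dotted line after endosperm rupture.

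Between 1 h and 3 h SOM went opposite ways in the tissues. Micropylar endosperm read 8.11, 8.48, 8.15 and 8.22 at 3 h, above every array of 1 h, a rise of 0.69 ± 0.19 (1.61-fold, adjusted p = 0.00304). The radicle read 6.53, 5.54, 5.28 and 5.97 at 3 h, below every array of 1 h, and SOM fell there by 1.25 ± 0.19 (2.38-fold, adjusted p = 2.55e-07). In the radicle 2 of 6 genes passed against 22.8% of all probe sets. The difference between the tissues, added after the values were seen, was 1.93 ± 0.27 (adjusted p = 1.8e-07), and leaving out 1 array at a time kept each of these 3 calls. Over this step the endosperm marker EPR1 fell by 2.16 in micropylar endosperm and by 0.65 in radicle, and MAN7, the other endosperm marker, did not pass. Of the 6 root markers PIN2 (0.83) and PLT1 (0.94) rose and SCR fell by 0.90 in radicle, and of the 5 cotyledon markers AS1 fell by 0.61 in micropylar endosperm and KAN1 passed in radicle, where neither of its groups was clearly above background. Their part in the SOM values was not tested.

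SOM then came back in the radicle, from 5.71, 6.10, 6.14 and 6.00 at 5 h to 6.42, 6.55, 6.74 and 6.64 at intact 7 h, with no overlap. From 3 h to intact 7 h it rose by 0.76 ± 0.19 (adjusted p = 0.00203), a comparison added after the values were seen that 2 of 6 genes passed against 20.3% of all probe sets. Replicate 1 of 3 h overlapped the 7 h arrays, and in a fit on those arrays alone the call was lost, although no single array decided it in the fit over all groups. In micropylar endosperm SOM went down over the same hours, to 6.58, 6.99, 7.02 and 6.61 at intact 7 h. At that stage the arrays of both tissues overlapped. From 1 h to intact 7 h SOM fell by 0.75 ± 0.19 in micropylar endosperm (adjusted p = 0.000903) and by 0.49 ± 0.19 in radicle (adjusted p = 0.0352), the second lost in 4 of 8 fits that each left out 1 array.

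Testa rupture separated SOM within seeds of 1 age. Micropylar endosperm of 7 h seeds with a ruptured testa read 4.99, 4.58, 5.47 and 4.69, and every array lay below the lowest of the intact group. The difference was -1.87 ± 0.19 on the log2 scale, 3.65-fold lower (adjusted p = 2.72e-12). The radicle read 4.97, 5.27, 4.82 and 5.32 after testa rupture, also without overlap, a difference of -1.49 ± 0.19 (2.81-fold lower, adjusted p = 7.59e-08). SOM was the only one of the 6 genes that passed at testa rupture in either tissue, against 6.33% of all probe sets in micropylar endosperm and 1.71% in radicle. PHYA came closest in micropylar endosperm (-0.44 ± 0.18, adjusted p = 0.154), where its arrays did not overlap. The difference between the tissues, added later, did not pass for SOM (-0.38, 95% interval -0.92 to 0.17, adjusted p = 0.998) or for any other of the 6, against 0.432% of all probe sets. Among the markers of other tissues, SMB was at least 0.47 higher in micropylar endosperm after testa rupture. The other root markers and the seed coat and cotyledon markers did not pass. Of these, the means of PIN2 (3.92 and 4.66) and AS1 (4.73 and 5.26) were higher after rupture, and that of SHR lower (3.77 and 3.73). In radicle no marker passed. The part of these markers in the SOM values was not tested.

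SOM was lower again at intact 16 h than at ruptured 7 h. From ruptured 7 h to intact 16 h it fell by 0.75 ± 0.19 in micropylar endosperm (adjusted p = 0.00265) and by 1.24 ± 0.19 in radicle (adjusted p = 5.47e-07), the groups without overlap in both, although the first was lost in a fit on those arrays alone. Most of the step was in place at 10 h, when micropylar endosperm had a mean of 4.21, followed by 4.29 at 13 h and 4.18 at intact 16 h, and radicle means were 4.30, 4.00 and 3.85. In these comparisons, which share the ruptured 7 h groups with testa rupture, 3 of 6 and 1 of 6 genes passed, against 15.9% and 11.9% of all probe sets. At 16 h the micropylar endosperm read 4.41, 4.29, 3.71 and 4.31 before endosperm rupture and 3.42, 3.29, 3.35 and 3.40 after it. The difference at rupture was -0.82 ± 0.19 or more in size (at least 1.76-fold lower, adjusted p = 0.00276), and 2 of 6 genes passed, SOM and SPT, against 4.3% of all probe sets. Neither call held in a fit on those 8 arrays alone, in which 30 probe sets passed in place of 598. In the radicle SOM read 3.67, 3.83, 4.15 and 3.75 before and 3.39, 3.35, 3.35 and 3.71 after. The groups overlapped in 1 array, the difference of -0.40 ± 0.19, to a group not clearly above background, did not pass (adjusted p = 0.264), and none of the 6 genes did, against 5.44% of all probe sets.

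SOM also fell in the other tissues. Non-micropylar endosperm read 8.75, 8.62, 8.40 and 8.58 at 3 h, 7.16, 7.70, 7.80 and 7.42 at 7 h, and 5.62, 5.63, 6.43 and 4.98 at 13 h, with no overlap between times. From 3 h to 13 h SOM fell by 2.92 ± 0.19 (7.58-fold lower, adjusted p = 6.68e-24). Cotyledons read 6.83, 7.10, 7.26 and 7.20 at 3 h and 6.84, 6.94, 6.70 and 6.51 at 7 h, which overlapped. At 13 h they read 4.39, 5.44, 5.10 and 4.54, below every earlier array, and SOM fell by 2.23 ± 0.19 from 3 h (4.68-fold lower, adjusted p = 6.2e-17). In each tissue 3 of 6 genes passed from 3 h to 13 h, against 39.3% of all probe sets in non-micropylar endosperm and 25.4% in cotyledons. Nearly all of the cotyledon fall came after 7 h (-1.88 ± 0.19, adjusted p = 7.95e-13, added after the values were seen), a step that 2 of 6 genes passed against 17.2% of all probe sets.

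At matched times SOM was lower in micropylar than in non-micropylar endosperm, with a difference of -0.81 ± 0.11 (adjusted p = 1.8e-08), and was the only 1 of the 6 genes that passed, against 13.6% of all probe sets. It was 1.02 ± 0.11 higher in non-micropylar endosperm than in cotyledons (adjusted p = 5.5e-13), where 4 of 6 genes passed against 44.7% of all probe sets. Radicle against cotyledons gave -0.77 ± 0.11 (adjusted p = 1.16e-08), and 3 of 6 genes passed there against 36.8%. Each of these SOM averages covers a time at which the arrays of the tissues overlapped. That was 3 h for the endosperm parts (means 8.24 and 8.59) and intact 7 h for radicle and cotyledons (6.59 and 6.75). For non-micropylar endosperm and cotyledons it was 13 h (5.66 and 4.87). At the other matched times the arrays did not overlap. The ordered group means broke at 2 places only, with 24 of 26 neighbours overlapping in their arrays: between micropylar endosperm at 3 h and whole dry seed, and between radicle at intact 7 h and radicle at 5 h.

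**Figure D3:**
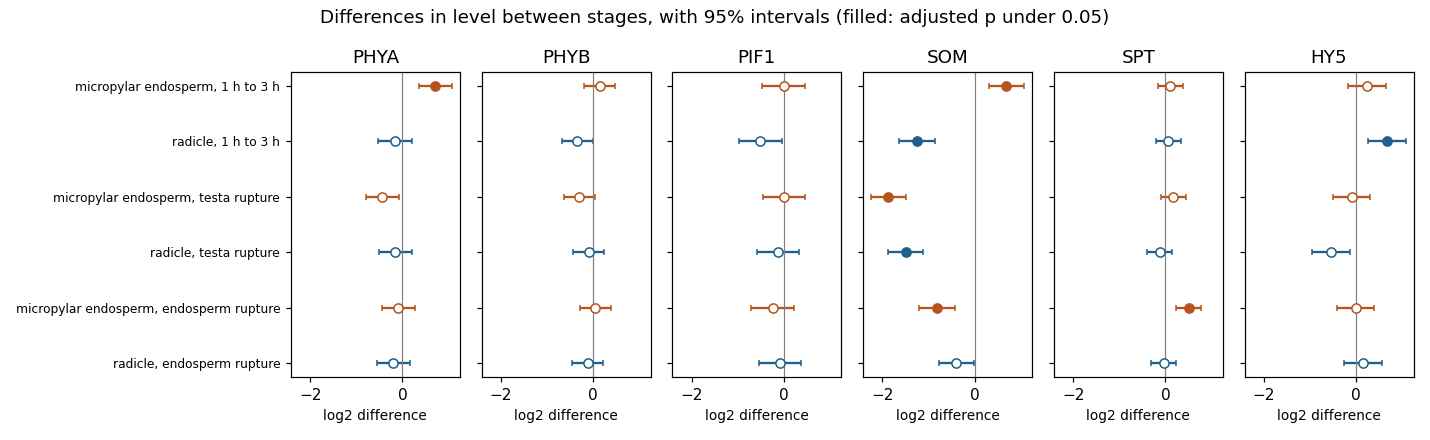
Differences in level on the log2 scale (points, with 95% intervals from the limma fit) for 6 steps and each of the 6 genes, orange for micropylar endosperm and blue for radicle, filled where the adjusted p was under 0.05. SOM is filled in 5 of 6 steps and points opposite ways in the tissues from 1 h to 3 h, whereas PHYB and PIF1 are filled in none.

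SPT, whose Arabidopsis counterpart is known for holding back germination of seeds in light and cold, rose late in micropylar endosperm. It was not clearly above background there at 1 h and 5 h (means 3.58 and 3.46) and read 3.87, 3.81, 3.59 and 4.04 at ruptured 7 h. The arrays then read 4.42, 3.98, 4.19 and 3.77 at 10 h, 4.20, 4.21, 4.31 and 4.35 at 13 h, and 4.28, 4.70, 4.84 and 4.54 at intact 16 h. Intact 16 h did not overlap ruptured 7 h, and SPT rose by 0.76 ± 0.14 (1.70-fold, adjusted p = 1.02e-05), a call that leaving out any 1 array or fitting those arrays alone did not change. With the endosperm ruptured at 16 h the arrays read 4.58, 5.08, 5.03 and 5.68, overlapping those with it intact. That further difference of 0.51 ± 0.14 passed (adjusted p = 0.0127), but was lost when replicate 1 before rupture or replicate 4 after it was left out, and ran from 0.31 to 0.68 as single arrays were left out.

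In the radicle SPT stayed at means of 3.42 to 3.70 and was not clearly above background at ruptured 7 h, 10 h and 13 h. From 10 h on, every array of micropylar endosperm lay above every radicle array of the same stage. The difference between the tissues in the step from ruptured 7 h to intact 16 h was 0.59 ± 0.19 (adjusted p = 0.0423), the only 1 of the 6 genes to pass against 7.36% of all probe sets. It was lost in 11 of 16 fits that each left out 1 array and after 3 other changes of processing. At endosperm rupture the difference between the tissues, 0.55 ± 0.19, did not pass (adjusted p = 0.137), nor did any of the 6, against 2.66% of all probe sets. SPT also rose from 3 h to 13 h in non-micropylar endosperm, by 0.44 ± 0.14 (adjusted p = 0.00555), and in cotyledons, by 0.48 ± 0.14 (adjusted p = 0.00471), with no overlap between the times in either. The first call was lost without replicate 4 of 3 h or replicate 1 of 13 h (adjusted p up to 0.0527), and the second without replicate 2 of 13 h and in the fit on those arrays alone (up to 0.0659). The endosperm markers EPR1 and MAN7 fell by 1.25 and 0.46 from ruptured 7 h to intact 16 h in micropylar endosperm, no marker of another tissue passed there, and the part of this in the SPT values was not tested.

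HY5, the bZIP activator of light responses, was highest in cotyledons. Their arrays read 6.41, 6.62, 6.18 and 6.67 at 3 h and 8.33, 8.26, 8.39 and 7.09 at 7 h. No arrays overlapped, and HY5 rose by 1.55 ± 0.21 (2.92-fold, adjusted p = 7.99e-09). Replicate 4 of 7 h stood apart, and without it the rise was 1.86. HY5 was the only 1 of the 6 genes to pass that step, against 13.6% of all probe sets. The 13 h arrays read 6.06, 7.22, 6.43 and 7.10, and HY5 fell by 1.31 ± 0.21 from 7 h (adjusted p = 6.17e-07) with an overlap through replicate 4 of 7 h. Without that replicate the difference was -1.62, and in a fit on those arrays alone it did not pass. The level at 3 h was already 1.29 ± 0.22 above that of the dry cotyledon end (5.46, 5.00 and 5.08, adjusted p = 6.31e-06), a sample that also held endosperm, and 2 of 6 genes passed there against 15.9% of all probe sets. These 3 steps were added after the values were seen, and neighbouring steps share a group. From 3 h to 7 h FIL, a leaf polarity marker, rose by 0.59, and no marker of endosperm, root or seed coat passed. Among the other cotyledon markers the mean of AS1 was lower at 7 h (6.21) than at 3 h (6.56). KAN1, YAB3 and YAB5 were not clearly above background at either time. From 7 h to 13 h FIL (0.79) and AS1 (1.57) rose. The part of these markers was not tested.

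In the radicle HY5 read 5.30, 5.05, 5.35 and 5.15 at 1 h, 5.68, 5.99, 6.33 and 5.52 at 3 h, and 6.85, 6.68, 6.96 and 6.01 at 5 h. The 3 h arrays lay above those of 1 h, a rise of 0.67 ± 0.21 (adjusted p = 0.0112) that was lost without replicate 3 of 3 h. At intact 7 h the arrays read 6.25, 6.50, 6.67 and 5.38, and HY5 was 0.99 ± 0.21 above 1 h (1.99-fold, adjusted p = 5e-05). After testa rupture they read 5.25, 6.10, 5.64 and 5.63, and the difference of -0.55 ± 0.21 did not pass (adjusted p = 0.185). Without replicate 4 of the intact group, the lowest of that group, it was -0.82 and passed (adjusted p = 0.0176). In micropylar endosperm HY5 rose by 0.57 ± 0.21 from 1 h to intact 7 h (adjusted p = 0.0208), a call lost without replicate 4 of either group. Its means there lay between 5.14 and 5.98 over the 9 stages, and the difference from radicle in that step did not pass (-0.42 ± 0.29, adjusted p = 0.435).

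Over matched times HY5 gave -1.57 ± 0.12 in non-micropylar endosperm against cotyledons (2.97-fold lower, adjusted p = 1.89e-20), with no overlap between the arrays of the tissues. Radicle against cotyledons gave -1.21 ± 0.12 (2.31-fold lower, adjusted p = 8.1e-15). The average over the 9 stages did not pass between micropylar endosperm and radicle (-0.10 ± 0.07, adjusted p = 0.193), but that average covers stages of opposite order. At 5 h every radicle array (6.01 to 6.96) lay above every endosperm array (5.56 to 5.72), and at 10 h (5.18 to 5.67 in radicle, 5.76 to 6.13 in endosperm) and 13 h every radicle array lay below.

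**Figure D4:**
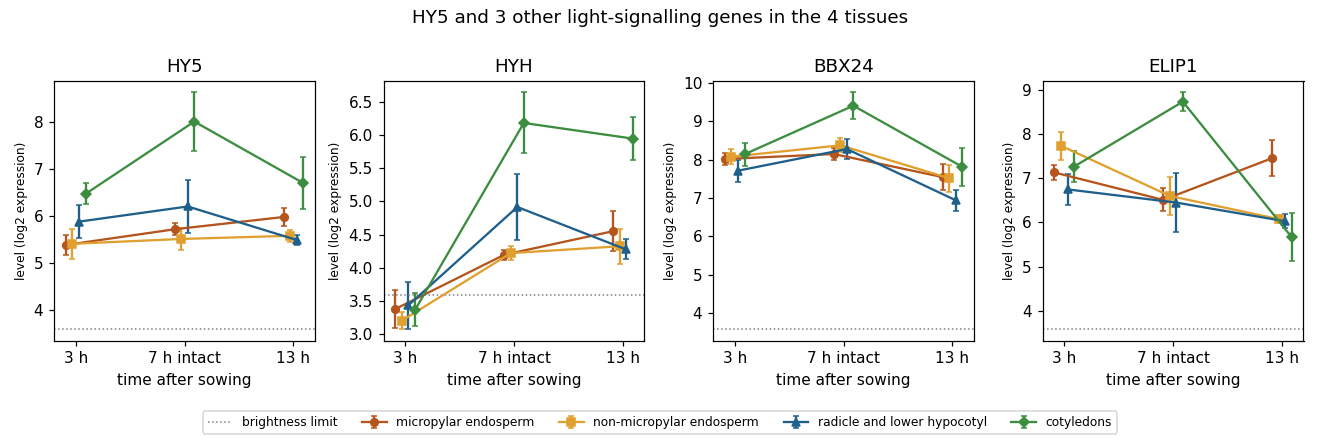
Mean level (log2 expression, error bars SD, 4 arrays a group) of HY5 and of HYH, BBX24 and ELIP1 at 3 h, intact 7 h and 13 h, 1 colour a tissue, each panel with its own vertical range and the brightness limit dotted. Cotyledons are the highest tissue at 7 h in all 4 panels, with HY5 at 8.02, HYH at 6.19, BBX24 at 9.41 and ELIP1 at 8.74. At 13 h HY5 is again highest in cotyledons (6.70), where ELIP1 is the lowest of the tissues (5.67).

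Of 12 other measured transcription factors of the light pathway 2 rose and 3 fell in cotyledons between 3 h and 7 h, where 6.61% of all probe sets rose and 6.97% fell. HYH, the bZIP factor closest to HY5, rose by at least 2.83 ± 0.21, and BBX24, a B-box repressor of HY5 action, by 1.27 ± 0.20. BBX21, a B-box factor that activates HY5, fell by 0.74 ± 0.16, a call lost in the fit on those arrays alone. Of the 6 measured genes that HY5 is known to activate in Arabidopsis, 1 rose and none fell (median 0.34, against -0.01 for all probe sets): ELIP1, an early light-induced chloroplast protein, by 1.47 ± 0.25. From 7 h to 13 h the factor BBX24 fell by 1.59 ± 0.20. Of the 6 genes that HY5 activates, 3 fell over that step and none rose, among them ELIP1 by 3.07 ± 0.25 and ELIP2 by 1.00 ± 0.19. Of all probe sets 8.18% fell and 9.02% rose (median -0.21 for the 6 genes against 0.00).

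BBX24 and HYH also rose early in the other tissues. From 1 h to intact 7 h BBX24 gained 1.91 ± 0.20 in micropylar endosperm and 2.01 ± 0.20 in radicle, and HYH at least 1.08 ± 0.21 and at least 1.74 ± 0.21. Of the same 12 factors, which include these genes, 2 rose and 4 fell in micropylar endosperm over that step and 3 rose and 3 fell in radicle (medians -0.24 and -0.12, against -0.07 and -0.08 for all probe sets). Of all probe sets 16.7% rose and 21.5% fell over that step in micropylar endosperm, and 16.6% rose and 23% fell in radicle. PIF4, a growth-promoting relative of PIF1, fell by at least 0.98 ± 0.23 and at least 1.55 ± 0.23. At testa rupture 1 of these 12 passed, BBX21, which fell by 0.49 ± 0.16 in micropylar endosperm, where 3.64% of all probe sets rose and 2.69% fell, and the call was lost in 8 of 14 alternative fits.

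From 1 h to intact 7 h, the step in which PHYA rose in micropylar endosperm, 3 of 6 other photoreceptors fell there and none rose, against 21.5% of all probe sets lower and 16.7% higher. In radicle 5 of 6 fell and none rose, against 23% lower and 16.6% higher (medians -0.45 and -0.53). The blue light receptor CRY1 fell by 1.02 ± 0.20 and 0.96 ± 0.20, and PHYC, a phytochrome, by 0.71 ± 0.19 and 0.88 ± 0.19. At both ruptures none of the 6 passed in either tissue, against 6.33% and 1.71% of all probe sets at testa rupture and 4.3% and 5.44% at endosperm rupture. Averaged over stages 2 of the 6 were higher in micropylar endosperm than in radicle and none was lower, the blue light receptor CRY2 by 0.59 ± 0.07 and the phytochrome PHYE by 0.15 ± 0.05, against 28.5% higher and 37.2% lower. In non-micropylar endosperm against cotyledons, a comparison that 44.7% of all probe sets passed, receptors differed in direction. PHYE, like PHYA, was higher (0.41 ± 0.08, adjusted p = 1.11e-05). CRY1 (-0.71 to -0.49 over alternative fits) and the photoreceptor PHOT1 (-0.73 to -0.65) were lower. Of 10 partners of the phytochromes and of COP1, 7 were higher in micropylar endosperm than in radicle and none was lower, against 28.5% of all probe sets higher and 37.2% lower (median 0.24 against -0.04). SPA1, a COP1 partner, led with 0.90 ± 0.05, followed by FHY3, a factor of the PHYA pathway, with 0.71 ± 0.07. The FHY3 means in radicle lay between 3.57 and 3.96, close to the brightness limit. From 1 h to 3 h in micropylar endosperm FHY3 rose by 0.82 ± 0.21 and SPA1 by 0.72 ± 0.16, and 4 of the 10 rose and none fell, where 14.8% of all probe sets rose and 17.6% fell. In radicle 3 of the 10 fell and none rose, where 12.9% fell and 9.93% rose.

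Among 12 hormone and dormancy genes linked to PIF1 and SOM, 4 rose and 3 fell from 1 h to 3 h in micropylar endosperm, against 14.8% of all probe sets higher and 17.6% lower (median 0.13 against -0.04). CYP707A2, which breaks down ABA, rose by 2.25 ± 0.26, and RGA, a DELLA repressor of gibberellin responses, by 1.66 ± 0.21, in the step in which SOM rose. MFT, a regulator of germination, fell by 0.94 ± 0.26 in that step and by 3.17 ± 0.26 by intact 7 h, and ABI5, a bZIP factor of ABA responses, by 0.49 ± 0.17 and 1.12 ± 0.17, the first of these lost in 4 of 14 alternative fits and the second in none. The difference between the tissues from 1 h to 3 h passed for CYP707A2 (1.98 ± 0.37, adjusted p = 0.000106), as it did for SOM. At testa rupture 2 of the 12 fell in micropylar endosperm, CYP707A2 by 0.83 ± 0.26 and RGA by 0.74 ± 0.21, against 2.69% of all probe sets lower. Those calls were lost in 7 and 3 of 14 alternative fits. None of the 12 passed in radicle, against 1.71% of all probe sets. From 3 h to 13 h 7 of the 12 fell and 1 rose in non-micropylar endosperm, where 19.9% of all probe sets fell and 19.4% rose (median -0.69 against -0.01), with MFT down by at least 3.49 ± 0.26 and CYP707A2 by 2.29 ± 0.26. The gibberellin synthesis genes GA3OX1 and GA3OX2, singled out after their values were seen, passed in none of these steps.

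Profiles were compared by the correlation of group means over the 27 groups, a description, since groups share tissues and stages, among 40 listed probe sets whose means spanned at least 1. SOM was most like ABI5 (r = 0.880), CRY1 (0.805) and MFT (0.773). PHYA was most like FHY3 (0.906), which in Arabidopsis acts in the PHYA pathway, and less like the flavonol synthesis gene FLS1 (0.648) and SPA1 (0.601). Both PHYA and FHY3 lay close to the brightness limit in radicle. PIF1 was nearest to PHYC (0.816), TT12 (0.784) and PIF4 (0.783), and PHYB to ABI3 (0.751), a seed maturation factor, EPR1 (0.718) and SPA1 (0.695). HY5 was nearest to HYH (0.738), BBX24 (0.646) and FIL (0.460). SPT was nearest to CHS (0.718), FLS1 (0.709) and F3H (0.616), all of flavonoid synthesis. Among the 6 genes themselves the highest correlation was that of PHYB and SOM (0.679), followed by PIF1 and SOM (0.617), and the lowest that of PHYA and PIF1 (-0.529).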

How the data were processed

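RNA of dissected cress seed tissue, 100 ng a sample, was labelled with biotin and hybridised to 1-colour Affymetrix arrays, per the labels' protocols. The deposited values are log2 expression that the authors computed by RMA with affy, as the submitters' processing notes name them. That method corrects background, equalises array distributions and shrinks differences among dim probe sets. The array design and the version of affy are not given in the sources used here. Array medians ran from 4.04 to 4.17, and precision is limited by how many arrays there are.

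Group means were fitted jointly over the 107 arrays with limma 3.58.1 under R 4.3.3, leaving 80 residual degrees of freedom and a prior worth 6.04 more. Within a comparison p-values were adjusted by Benjamini-Hochberg over 13895 probe sets. The script was tested on simulated data. Errors after differences are limma standard errors. The 6 measured genes were tested in every comparison. Of other lists some of the largest passing changes are named, at most 2 per direction, and not for every comparison. The members, lists and tests were chosen with earlier results of these data known. Of 60 other listed loci 46 had a probe set. Alternatives were robust moderation with an intensity trend, a brightness filter, centring on bright probe sets, quantile normalization, the arrays of a comparison alone, a replicate block and leaving out arrays.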

Additional observations from a re-analysis of the deposited data

Results flagged for a closer look

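Of 156 groups of 4 arrays (6 genes in 26 groups), 7 held an array whose gap to its nearest neighbour took up most of the group's range, where chance gives such a gap in about 5% of groups. For PHYA these were replicate 2 of radicle at 1 h (3.81) and replicate 4 of micropylar endosperm at intact 16 h (4.33). For PIF1 they were replicate 1 of cotyledons at 3 h (5.32) and replicate 1 of micropylar endosperm at intact 16 h (3.56). SOM had replicate 3 of micropylar endosperm at intact 16 h (3.71) and replicate 4 of radicle after endosperm rupture (3.71), the array that overlapped the group before rupture. HY5 had replicate 4 of cotyledons at 7 h (7.09). 3 of the 7 lay in micropylar endosperm at intact 16 h, each in another replicate.

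The change over a step differed between micropylar endosperm and radicle in 3 cases by a test of the difference itself. SOM differed by 1.93 from 1 h to 3 h, where it rose in the endosperm and fell in the radicle, and PHYA by 0.87 over the same hours. SPT differed by 0.59 from ruptured 7 h to intact 16 h.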

How the results depend on the processing

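Over 192 values of the 6 genes, 2772 alternative fits gave 2683 with the same call and direction, 67 that lost and 22 that gained the call, and 0 reversed. A further 99 fits turned the sign of a value that passed in neither fit. Of 2904 fits of list genes 332 lost the call and 0 reversed. Centring on brighter probe sets moved the median of all probe sets by at most 0.0335 and quantile normalization by at most 0.0479.

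Replicate numbers showed no consistent pairing in the comparisons of a group with another. Over 21 comparisons and 82 same-numbered pairs the correlations of deviations ran from -0.537 to 0.443, and 0 comparisons had every pair over 0.1. None of them set micropylar endosperm against radicle of the same stage, so pairing of those tissues was not checked. With the replicate block, 877 of all probe sets passed at testa rupture in micropylar endosperm and 239 in radicle, and no call of the 6 genes changed. The block ended the calls of PHYE (1 h to 3 h in micropylar endosperm), BBX22 (dry ends) and COP1 (cotyledons at 3 h against dry).

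In fits on only the arrays of a comparison the spread was estimated from fewer samples. The count of probe sets went from 598 to 30 and of genes among the 6 from 2 to 0 at endosperm rupture in micropylar endosperm, and the first from 756 to 266 in radicle. It went from 3171 to 1512 for 1 h to 3 h in radicle, from 2212 to 1454 with 3 to 1 of the 6 for ruptured 7 h to intact 16 h in micropylar endosperm, and from 3529 to 1793 with 3 to 1 for 3 h to 13 h in cotyledons. It went from 1340 to 623 for the dry ends and from 408 to 20 for the first hour in radicle. Among differences between tissues, the 6 genes went from 0 to 1 for 1 h to intact 7 h and from 1 to 0 for ruptured 7 h to intact 16 h, the counts from 1408 to 896 with 2 to 1 for 1 h to 3 h, and from 370 to 41 for endosperm rupture. In the steps added later the counts went from 2826 to 1867 with 2 to 1 for radicle from 3 h to 7 h, from 1887 to 637 for cotyledons from 3 h to 7 h, from 2391 to 665 with 2 to 1 from 7 h to 13 h, and from 2206 to 887 for cotyledons against dry. Quantile normalization took the 6 genes from 0 to 1 in the first hour in micropylar endosperm. It took the tissue difference from ruptured 7 h to intact 16 h from 1 to 0, as did centring, and the cause was not tested.

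Leaving out arrays gave 464 to 921 probe sets at testa rupture in micropylar endosperm and 111 to 242 in radicle, 351 to 732 and 502 to 1148 at endosperm rupture, 1241 to 1447 between the endosperm parts, 737 to 1178 and 259 to 498 in the first hour, and 34 to 75 for the tissue difference at testa rupture. Of the 6 genes, it left 1 to 2 at testa rupture in radicle, at endosperm rupture in micropylar endosperm, for the tissue difference from 1 h to 3 h, and for cotyledons from 3 h to 7 h or against dry. It left 1 to 3 for 1 h to 3 h and 3 h to 7 h in radicle and 3 h to 13 h in non-micropylar endosperm, 2 to 4 there from 7 h to 13 h, and 0 to 1 for the first hour in micropylar endosperm and the other tissue differences except testa rupture. Low signal limits SPT, PHYA and FHY3 in radicle, and PIF1 after 7 h, where differences near the brightness limit are understated.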
